A study of Klebsormidium nitens with 6 samples.

Results

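The 226 genes described here are the most abundant transcripts of mock-treated Klebsormidium nitens whose level stayed within 2-fold after treatment with OPDA. They were selected on measured values, first as the 250 genes with the highest mean normalized count in mock. A gene was then kept when its OPDA mean plus 1, divided by its mock mean plus 1, lay above 0.5 and below 2. Of the other 24 genes among the 250, 11 had a ratio of at least 2 and 13 a ratio of 0.5 or less. The 226 genes were 226 of 17152 in the normalized table, and the count files list 17153 gene IDs. Mock and OPDA values both chose these genes, so their levels and their ratios are given as a description and carry no test.

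Klebsormidium nitens is a filamentous alga of the streptophytes, the lineage from which land plants arose. Algae grown for a month on plates of Gamborg's B5 medium at 0.5 strength were moved as discs into liquid medium of the same kind and shaken for 2 hours. The mock group (replicates 1, 2 and 3) had no OPDA in the medium and the OPDA group (replicates 1, 2 and 4) had 25 µM. The labels name no mutation or transgene. They are also silent on whether replicates are separate cultures, and the spread between libraries may be technical.

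OPDA, 12-oxo-phytodienoic acid, is an oxylipin that plants make in the plastid from polyunsaturated fatty acids and that vascular plants convert to jasmonate. It carries a reactive carbonyl group next to a double bond, which binds thiols, and in land plants it can change transcript levels without the jasmonate receptor COI1. In photosynthetic cells the largest pools of messenger RNA usually encode proteins needed in bulk, such as light-harvesting proteins, the small subunit of Rubisco and ribosomal proteins. Which of the 226 genes encode such proteins is not known here, because the count files give IDs only and the gene table used gives neither products nor gene symbols for them. Of the 226 IDs, 222 matched a locus tag of assembly ASM70883v1, all 222 listed as protein-coding, and the other 4 have an ID with a g number.

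The 6 libraries held between 23693021 and 24169072 counts. No library was a copy of another: within a group, counts of every pair of libraries differed with a chi-square of at least 6.03 for each degree of freedom, where sampling noise gives about 1. Over all genes, 54.0% of the 11752 tested differed between OPDA and mock (edgeR's quasi-likelihood F test with p adjusted by Benjamini-Hochberg, threshold 0.05). A normalized count is a raw count divided by a size factor of its library and is not corrected for gene length, so an order of genes by it is an order of reads and not of molecules.

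The 226 genes held a large share of all counts, smaller in OPDA than in mock. Their share of the raw counts was 27.5%, 27.3% and 27.0% in mock replicates 1, 2 and 3. It was 25.2%, 23.9% and 23.5% in OPDA replicates 1, 2 and 4. Every OPDA library lay below every mock library, and the means (± SD, n = 3 each) were 27.3% ± 0.256 for mock and 24.2% ± 0.850 for OPDA. Choosing genes for a high mock level favours a lower share in OPDA, so this difference is partly set by the choice. With the 250 genes of the highest OPDA means in place of the mock means, a setting added after the data had been seen, 190 genes were within 2-fold. Those 190 held 25.0% of counts in mock and 22.9% in OPDA. In bulk samples, fewer cells of a kind and less RNA per cell cannot be told apart.

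**Figure D1:**
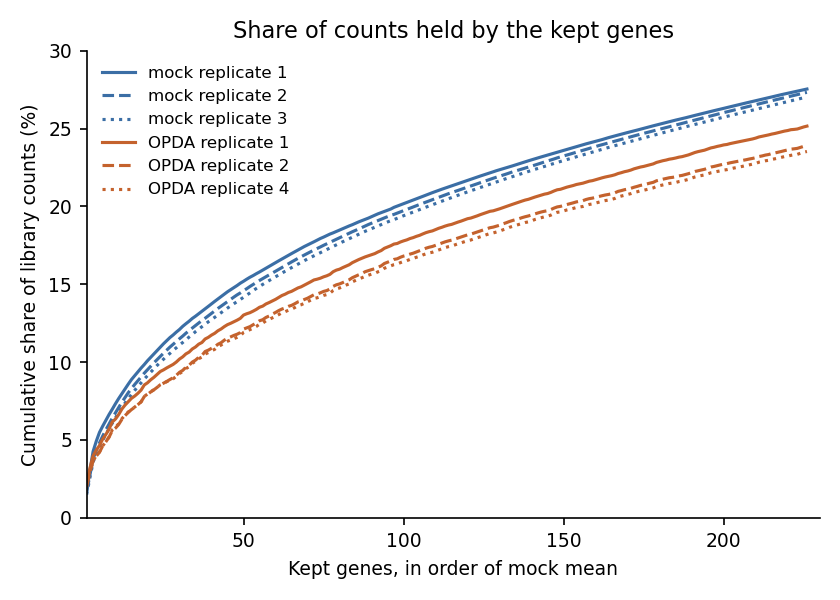
Cumulative share of each library's raw counts (percent, vertical axis) against the 226 kept genes in order of their mock mean (horizontal axis), with mock libraries in blue and OPDA libraries in orange. The 3 mock curves end between 27.0% and 27.5% and the 3 OPDA curves between 23.5% and 25.2%.

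The net difference of -3.10 percentage points was the sum of opposite changes. In 143 of the 226 genes the share of counts was lower in OPDA, by -4.79 points together, and in 83 genes it was higher, by 1.69 points together. The 24 abundant genes outside the 2-fold limits moved little on balance, by 0.358 points, from 3.27% to 3.62% of counts. The remaining 16903 genes took 2.74 points more, from 69.4% to 72.2% of counts.

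Few genes made up much of the increase, while the decrease was more widely spread. The 5 largest decreases among the kept genes made up 26.2% of the summed decrease and the 5 largest increases made up 48.9% of the summed increase. The largest decrease was that of kfl00098_0080_v1.1, from 1.11% of counts in mock to 0.704% in OPDA. The next were kfl00517_0030_v1.1 with -0.236 points, kfl00098_0090_v1.1 with -0.232 points, kfl01434_0010_v1.1 with -0.194 points and kfl00009_0510_v1.1 with -0.183 points. The largest increase was that of kfl00197_0070_v1.1, the most abundant transcript in both groups, from 1.63% to 2.11% of counts. The next, kfl00615_0010_v1.1 with 0.105 points and kfl00230_0060_v1.1 with 0.0914 points, were far smaller.

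The kept genes spanned a wide range of mock levels, with most genes near the lower end. Mock means ran from 10984 to 380037 normalized counts with a median of 17386, against a median of 910.3 over the 11751 tested genes of the normalized table. A mock mean of at least 100000 was reached by 5 genes, at least 50000 by 23 and at least 20000 by 92. In OPDA the same levels were reached by 4, 17 and 90 genes.

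The most abundant gene, kfl00197_0070_v1.1 (locus tag KFL_001970070), had normalized counts of 406687, 388691 and 344732 in mock replicates 1, 2 and 3. It had 534129, 486363 and 536209 in OPDA replicates 1, 2 and 4. All OPDA values lay above all mock values, and the ratio of the means was 1.37.

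The next, kfl01434_0010_v1.1 (KFL_014340010), had 298735, 243235 and 245658 in mock and 255624, 232618 and 201091 in OPDA. Mock and OPDA overlapped, with mock replicate 1 above the other libraries, and the ratio was 0.875. The gene kfl00098_0080_v1.1 (KFL_000980080) had 296852, 245379 and 233421 in mock and 196724, 175837 and 147012 in OPDA, a ratio of 0.670 without overlap.

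Mock replicate 1 was also the highest mock library for kfl00517_0030_v1.1 (KFL_005170030), with 156042 against 128161 and 135838. In OPDA that gene had 95164, 79272 and 95344, a ratio of 0.642. For kfl00098_0090_v1.1 (KFL_000980090) the mock values were 132858, 109691 and 92140 and the OPDA values 71188, 61022 and 50507. Its ratio was 0.546, and both groups spread widely without touching.

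Next in order was kfl00046_0250_v1.1 (KFL_000460250), with 94562, 100732 and 96295 in mock and 102693, 99331 and 94444 in OPDA. Its groups overlapped fully and the ratio was 1.02, the closest to 1 among the 10 most abundant kept genes. The gene kfl00213_0040_v1.1 (KFL_002130040) had a narrow mock range, from 85107 to 89314, and OPDA values of 87735, 71983 and 72991, so only OPDA replicate 1 reached the mock range.

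The other 3 of the 10 did not overlap between groups. The gene kfl00614_0030_v1.1 (KFL_006140030) lay between 86484 and 94928 in mock and between 67154 and 74009 in OPDA, a ratio of 0.775. The gene kfl00230_0060_v1.1 (KFL_002300060) lay between 78451 and 89248 in mock and between 103937 and 112765 in OPDA, a ratio of 1.33. The gene kfl00009_0510_v1.1 (KFL_000090510) had 83124, 78208 and 81043 in mock and 46606, 38637 and 36281 in OPDA, a ratio of 0.501.

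**Figure D2:**
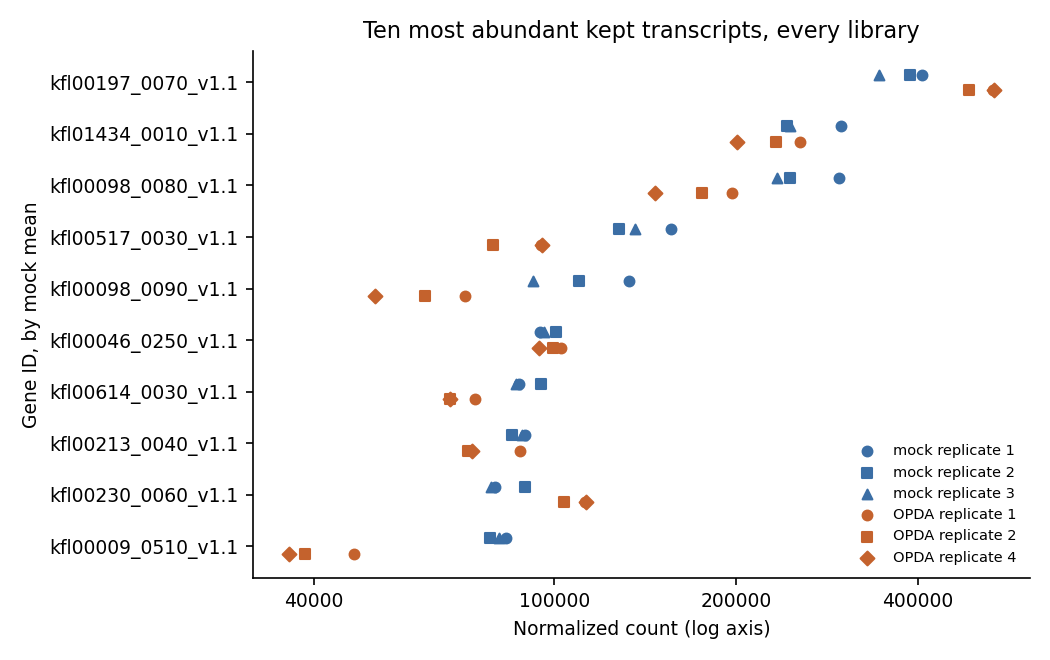
Normalized counts (horizontal log axis) of the 10 most abundant kept genes (vertical axis, in order of mock mean) in every library, with mock in blue, OPDA in orange and a marker shape for each replicate number. For kfl00197_0070_v1.1 and kfl00230_0060_v1.1 all OPDA points lie to the right of the mock points, and for kfl00009_0510_v1.1 the OPDA points, up to 46606, lie left of the mock points, which start at 78208.

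The 10 kept genes of the highest mock mean held a similar part of the kept genes' counts in both groups, while the top gene took more in OPDA. The order by mock mean was used for both groups, which favours a lower share in OPDA. The shares of the first 10 and 50 genes therefore do not compare concentration between groups. The 10 genes just described held 26.6%, 24.7% and 23.8% of the kept genes' counts in mock replicates 1, 2 and 3, and 25.2%, 24.1% and 24.7% in OPDA replicates 1, 2 and 4. The first gene alone held 5.53% to 6.27% in mock and 8.27% to 9.36% in OPDA. The 50 kept genes of the highest mock mean held 53.7% ± 1.40 of the kept genes' counts in the mock libraries and 51.01% ± 0.653 in the OPDA libraries (± SD, n = 3 each). The effective number of genes, the inverse of the summed squared shares, does not depend on an order of genes. It was 81.9 ± 7.35 for mock and 67.6 ± 3.25 for OPDA (± SD, n = 3 each), so by this measure counts were more concentrated in OPDA. Squared shares weigh the largest genes most, and the first gene alone held more in OPDA. The effective number was not computed without that gene, so it does not show that the other kept genes were more concentrated. Both groups of libraries stood clear of each other on that measure, with 74.0 as the lowest mock value and 70.8 as the highest OPDA value. Over all genes of a library, 50% of counts lay in 946 to 956 genes in mock and in 814 to 858 genes in OPDA.

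The kept genes were centred close to their mock level. The median ratio of OPDA to mock was 0.986, with 50% of the genes between 0.8004 and 1.103, and over all tested genes the median was 1.003. Of the 226, 146 lay within 1.25-fold of their mock level and 73 of these within 1.1-fold. The 146 were 64.6% of the kept genes, against 65.7% of all tested genes within 2-fold, so the count is near what the rule gives for any gene. With total counts 128 lay within 1.25-fold. Between 1.25-fold and 1.5-fold there were 11 genes higher and 22 lower in OPDA, and from 1.5-fold up to the limit of the rule 13 higher and 34 lower.

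The side of a shift depended on scaling for genes close to 1. With the deposited size factors 108 genes were higher and 118 lower, and the same split was found with TMM factors. With total counts alone 83 were higher and 143 lower, and the median ratio was 0.932. The 25 genes that changed side between these scalings had ratios from 1.004 to 1.06 with the deposited factors.

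The OPDA and mock values did not overlap in 147 of the 226 genes (65.0%), against 62.4% of all tested genes. Of the 147, 64 were higher in OPDA (28.3% of the kept genes, against 31.0% of all tested) and 83 were lower (36.7%, against 31.3%). By edgeR's test over all genes, 118 of the 226 (52.2%) passed the threshold, against 54.0% overall. Of these 36 were higher (15.9%, against 26.5% of all tested) and 82 lower (36.3%, against 27.5%). The 118 genes past the threshold had median ratios of 1.35 on the higher and 0.714 on the lower side. Since the ratio chose the genes, nothing is read from these counts.

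**Figure D3:**
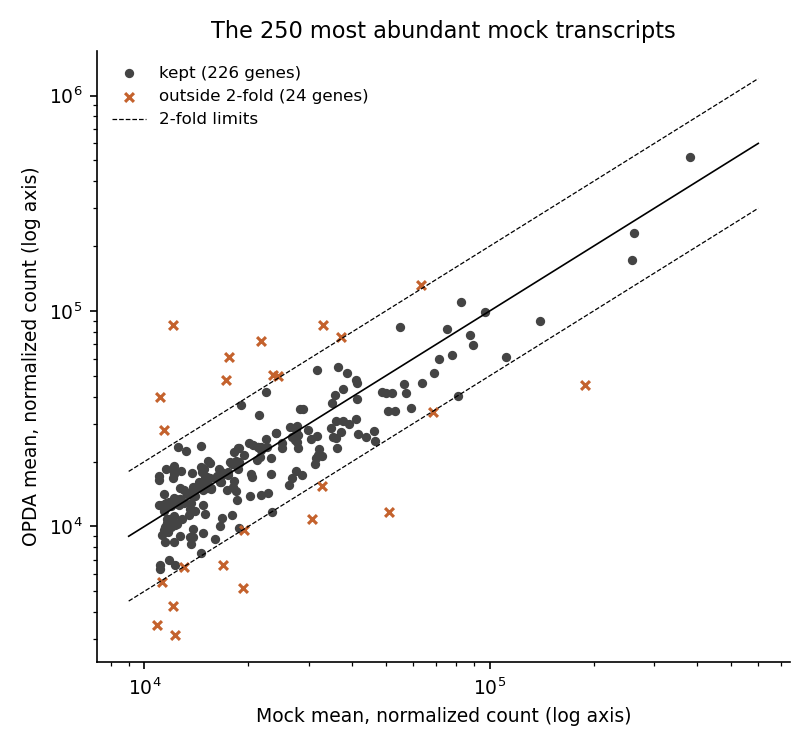
OPDA mean against mock mean (normalized counts, both axes logarithmic) of the 250 most abundant mock genes, with the 226 kept genes as dots and the 24 genes outside 2-fold as crosses. The solid line marks equal means and the dashed lines the 2-fold limits; most dots lie close to the solid line, and the most abundant gene, with a mock mean of 380037, lies above it.

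The kept genes with the highest ratios were of moderate rank. The gene kfl00460_0030_v1.1 (KFL_004600030) had 17419, 20078 and 19760 normalized counts in mock and 36166, 37170 and 36787 in OPDA, a ratio of 1.92. The gene kfl00801_0040_v1.1 (KFL_008010040) had 12452, 12538 and 12458 in mock and 22994, 24213 and 23010 in OPDA, a ratio of 1.88. Neither overlapped between groups. Mock replicate 1 was the lowest library of the first gene, whereas the second was nearly level within mock.

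The gene kfl00307_0010_v1.1 (KFL_003070010) was uneven in mock, with 18547, 22294 and 26451, and nearly level in OPDA, with 42387, 41785 and 41593. Its ratio was 1.87. The gene kfl00865_0050_v1.1 (KFL_008650050) showed the opposite, with 13210, 13184 and 13243 in mock and 19779, 22913 and 24206 in OPDA, a ratio of 1.69.

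At the other end, after kfl00009_0510_v1.1, stood kfl00329_0100_v1.1 (KFL_003290100), with 25330, 22293 and 22448 in mock and 12344, 11796 and 11027 in OPDA, a ratio of 0.502. The gene kfl01102_0010_v1.1 (KFL_011020010) had 16113, 14271 and 13427 in mock and 7825, 8230 and 6403 in OPDA, a ratio of 0.513. The gene kfl00081_0200_v1.1 (KFL_000810200) had 18285, 18572 and 19361 in mock and 9081, 9847 and 10439 in OPDA, a ratio of 0.522. None of these genes overlapped between groups. With total counts kfl00009_0510_v1.1 and then these genes, in the order given, had ratios of 0.474, 0.475, 0.485 and 0.494. All of these lie below the lower limit of the rule.

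The limits of the rule cut through a continuous range of values. Just outside the lower ratio limit lay kfl00009_0500_v1.1 with 0.498, next to kfl00009_0510_v1.1 inside it with 0.501. Just outside the upper limit lay kfl00091_0130_v1.1 with 2.04, while the highest kept ratio was 1.92. With total counts kfl00091_0130_v1.1 had a ratio of 1.93. The rule applied to total-count scaling kept 225 genes, with 4 lost and 3 gained. The kept gene of the lowest mock mean was kfl00061_0110_v1.1 with 10984, and the next gene in that order, kfl01253_g1_v1.1, had 10901. The 11 genes above the limit reached a ratio of 7.15 and the 13 below it went down to 0.227. A ratio within 2-fold was found for 90.4% of the 250 most abundant genes, for 86.4% of the next 250 and for 91.2% of all tested genes.

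The balance of higher and lower values in OPDA differed along the ranks of the mock mean. At mock ranks 1 to 50, 33 of 45 kept genes were lower and 12 higher, with a median ratio of 0.805. At ranks 51 to 100, 27 of 44 were lower, with a median of 0.948. At ranks 101 to 250, 58 of 137 were lower and 79 higher, with a median of 1.04. Between ranks 101 and 250 this balance turned with total-count scaling, to 79 lower and 58 higher, whereas 34 of 45 were lower at ranks 1 to 50. Without OPDA replicate 1 the split there was nearly even, with 69 lower of 137.

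Ranking by the mock mean favours lower values at the top, so the counts were repeated with other rankings, added after the data had been seen. Ranked by the OPDA mean, 16 of the 29 genes within 2-fold at ranks 1 to 50 were lower, with a median ratio of 0.875, and 36 of 124 at ranks 101 to 250, with a median of 1.07. Ranked by the mean of log2 values over all 6 libraries, these were 28 of 41 with 0.817 and 45 of 134 with 1.06. Ranked by the plain mean over all 6 libraries, they were 24 of 37 with 0.829 and 41 of 130 with 1.06. At ranks 51 to 100, 24 of 37 were lower by the OPDA mean, 23 of 41 by the log2 mean and 26 of 38 by the plain mean. By the OPDA mean and the plain mean, lower values were thus no more frequent at ranks 1 to 50 than at ranks 51 to 100. In all 3 rankings, taken with the deposited scaling only, the median ratio was below 1 in both of these rank ranges and above 1 at ranks 101 to 250. With total counts and the ranking by the mock mean, the median at ranks 101 to 250 was 0.984. Among the next 250 genes by mock mean, with the deposited scaling, 112 of the 216 within 2-fold were lower, with a median of 0.981. By the mock mean, the median thus did not stay above 1 beyond rank 250. The values are descriptive and genes are not independent replicates.

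**Figure D4:**
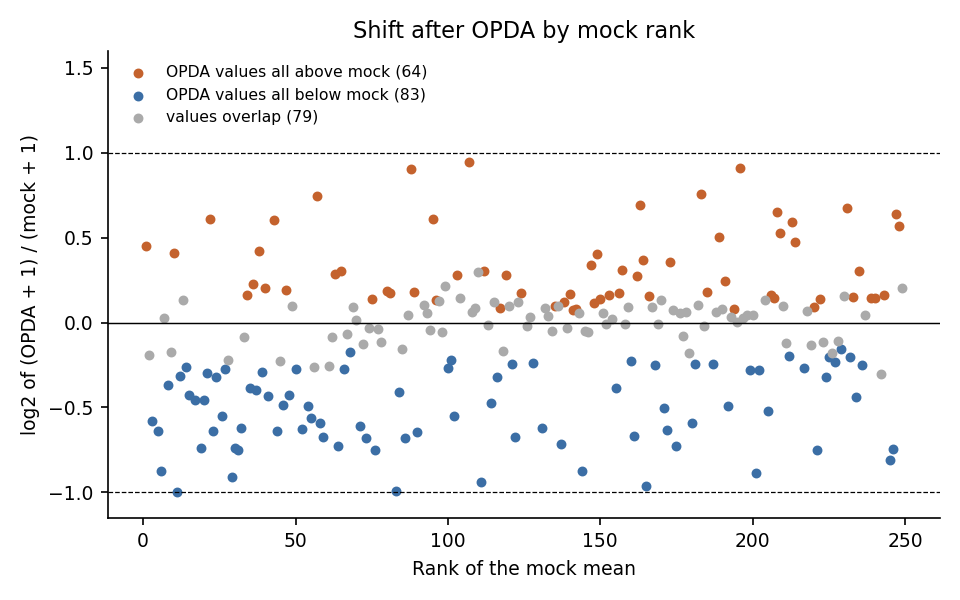
Log2 of the ratio of OPDA to mock (vertical axis) against the rank of the mock mean (horizontal axis) for the 226 kept genes, coloured by whether the 3 OPDA values lie all above, all below or overlapping the 3 mock values. Dashed lines mark the 2-fold limits; 64 genes lie wholly above and 83 wholly below, and the points at ranks 1 to 50 lie mostly under the line at 0.

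The order of the abundant transcripts differed between the groups. Of the 226 genes, 173 (76.5%) were among the 250 highest OPDA means and 160 were among the 250 highest in each of the 6 libraries. Of the 10 most abundant kept genes, 6 were also among the 10 highest OPDA means and 8 among the 20 highest. The gene kfl00009_0510_v1.1 went from rank 11 in mock to 49 in OPDA. The furthest was kfl00888_0040_v1.1, from rank 245 to 623.

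The spread between libraries, which the rule did not use, was far above counting error in these genes. The coefficient of variation between the 3 libraries had a median of 4.63% in mock and 6.94% in OPDA. Counting error alone would give medians of 0.746% and 0.764% at these depths; it covers the counting of reads only, since no molecular identifiers are stated. The observed value was above the counting value in 220 of the 226 genes (97.3%) among mock libraries and in 225 (99.6%) among OPDA libraries, against 76.4% and 77.9% of all tested genes. The median of their ratio was 6.65 in mock and 8.70 in OPDA, against 1.71 and 1.78 over all tested genes, whose counting error is larger. Under 5% in both groups were 42 genes (18.6%), against 18.2% of all tested genes. Over 10% were 20 genes in mock (8.85%, against 21.7%) and 50 in OPDA (22.1%, against 24.9%).

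In most kept genes the OPDA libraries differed among themselves more than the mock libraries did, but this did not hold on every measure. The spread was wider in OPDA in 154 of the 226 genes (68.1%), against 54.0% of all tested genes. The median SD of log2 values was 0.0669 in mock and 0.100 in OPDA, against 0.0846 and 0.0926 over all tested genes. These medians changed when single libraries were left out. An SD of 2 libraries tends to be lower than one of 3, so part of each drop comes from the smaller number. Over all tested genes the value fell to between 0.0594 and 0.0788 in mock, and to between 0.0756 and 0.0773 in OPDA. For the kept genes the mock value was 0.0408 without replicate 1, 0.0607 without replicate 2 and 0.0660 without replicate 3. Without OPDA replicate 1 the OPDA value was 0.0650, below the 0.0773 of all tested genes in the same OPDA libraries. Without OPDA replicate 2 the OPDA value was 0.104 and without OPDA replicate 4 it was 0.0778. By chi-square over the kept genes, the widest pair within a group was mock replicates 1 and 3, with 210 for each degree of freedom. The widest OPDA pair, replicates 1 and 4, had 164.

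**Figure D5:**
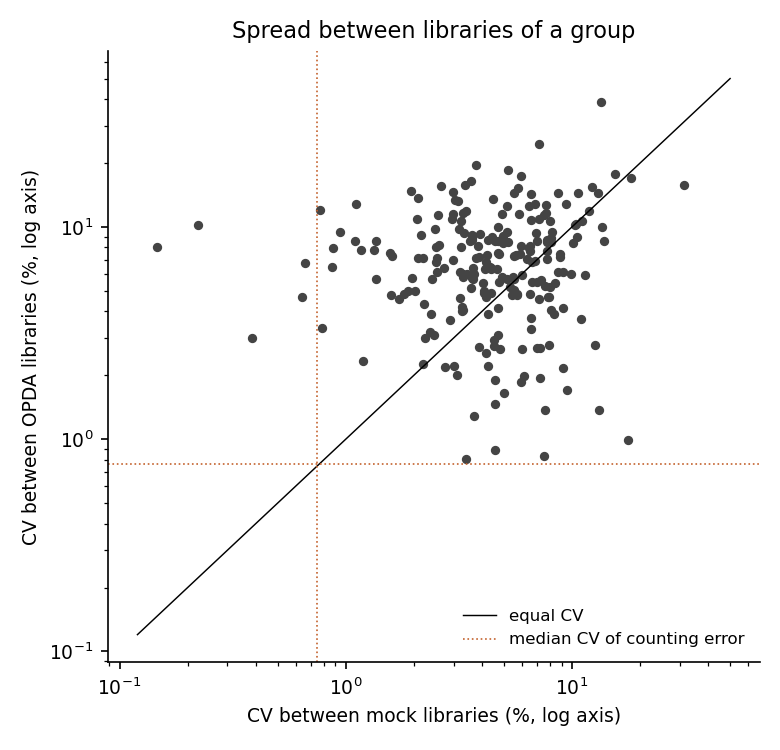
Coefficient of variation between the 3 OPDA libraries (vertical axis, percent) against that between the 3 mock libraries (horizontal axis, percent) for the 226 kept genes, both axes logarithmic. The solid line marks equal values and the dotted lines the median counting error, 0.746% in mock and 0.764% in OPDA; 154 points lie above the solid line.

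Genes were ordered by the mean of their mock and OPDA SDs of log2 values. The widest by that measure was kfl00888_0040_v1.1 (KFL_008880040), with 9478, 11341 and 12427 normalized counts in mock and 4510, 5340 and 9080 in OPDA. OPDA replicate 4 stood far above the other OPDA libraries and close to the lowest mock value, and the coefficient of variation was 38.6% in OPDA. The next, kfl00120_0160_v1.1 (KFL_001200160), had 25551, 15107 and 15653 in mock, where replicate 1 stood apart, and 26255, 23746 and 19074 in OPDA. Its ratio of 1.23 thus rested on a mock group whose highest value lay within the OPDA range. It was followed by kfl00098_0090_v1.1, with coefficients of variation of 18.3% in mock and 17.0% in OPDA. In OPDA alone kfl00199_0030_v1.1, named after its values were seen, was wider, with 24.6%.

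The narrowest by the mean of the SDs was kfl00801_0040_v1.1, with coefficients of variation of 0.386% in mock and 2.99% in OPDA. Single groups went lower in other genes, to 0.146% in mock and 0.810% in OPDA. The gene kfl00092_0280_v1.1 (KFL_000920280) had 18392, 17967 and 18108 in mock and 22600, 21598 and 21904 in OPDA, a ratio of 1.21 without overlap. The gene kfl00174_0110_v1.1 (KFL_001740110) had 11814, 11880 and 11697 in mock and 12900, 12704 and 12093 in OPDA. Its groups did not overlap although the ratio was 1.07, and with total counts the ratio was 1.01.

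Within the OPDA group the kept genes followed a common order of libraries. OPDA replicate 1 was the highest OPDA library in 146 of the 226 genes and OPDA replicate 4 the lowest in 133, whereas over all tested genes these libraries held those places in 32.9% and 34.8%. OPDA replicate 1 exceeded OPDA replicate 4 in 183 of 226 genes (81.0%), by a median ratio of 1.096. Over all tested genes it did so in 51.4%, by a median of 1.004. Among the 250 genes that follow by mock mean the share was 64.8%, and at mock ranks 1001 to 2000 it was 54.7%. With TMM factors the shares were 79.6% for the kept genes and 50.1% for all tested genes.

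In mock the order of libraries changed along the ranks. Mock replicate 1 exceeded replicate 3 in 110 of the 226 genes, in 34 of 45 at mock ranks 1 to 50 and in 15 of 44 at ranks 51 to 100. The median ratio to the mock mean was 1.03 in OPDA replicate 1, 0.961 in OPDA replicate 2 and 0.959 in OPDA replicate 4. With the deposited size factors, the side of the median gene was therefore not shared by the OPDA libraries. With total counts the median ratio of the group means was 0.932, and the medians of single OPDA libraries were not computed. The number of kept genes below their mock mean was 106 in OPDA replicate 1, 128 in replicate 2 and 134 in replicate 4. What sets OPDA replicate 1 apart was not tested.

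The kept genes lay scattered over 190 scaffold numbers of their IDs, with few close together. On the scaffolds of assembly ASM70883v1, 7 pairs of kept genes were direct neighbours, and 13 of the 222 matched genes had such a neighbour. Kept genes filled 14 of the 406 places next to a kept gene (3.45%), and they made up 1.38% of the matched IDs. In 5 of the 7 pairs both genes shifted to the same side, lower in OPDA in all 5. These pairs are not all separate, since some share kfl00329_0080_v1.1, and lower values were frequent among the most abundant kept genes. No share for other neighbour pairs is given, so nothing is read from this count. Adjoining genes can share reads, and no source used here states the counting mode or whether strand was used, so values of neighbours may not be separate measurements.

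The most abundant neighbours were kfl00098_0080_v1.1 and kfl00098_0090_v1.1, with the values given above and ratios of 0.670 and 0.546. In both, the libraries stood in the same order within mock and within OPDA, replicate 1 first. That order was not particular to the pair. OPDA replicate 1 was highest in OPDA in 146 of the 226 kept genes, and mock replicate 1 exceeded mock replicate 3 in 34 of 45 at mock ranks 1 to 50. On the same scaffold, kfl00098_0060_v1.1 had a ratio of 1.09 and kfl00098_0010_v1.1 a ratio of 1.21, so these 4 genes did not shift to the same side.

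The pair kfl00517_0030_v1.1 and kfl00517_0040_v1.1 had ratios of 0.642 and 0.643. The second had 57372, 51687 and 50837 in mock and 34501, 32267 and 36024 in OPDA, and in both genes OPDA replicate 2 was the lowest library. A run of 3 neighbours, kfl00329_0070_v1.1, kfl00329_0080_v1.1 and kfl00329_0100_v1.1, had ratios of 0.663, 0.765 and 0.502. The pair kfl00210_0030_v1.1 and kfl00210_0040_v1.1 had 0.743 and 0.728. The other 2 pairs lay close to their mock levels, kfl00062_0140_v1.1 and kfl00062_0150_v1.1 with 1.02 and 0.992, and kfl00160_0040_v1.1 and kfl00160_0050_v1.1 with 0.868 and 1.06. A further pair straddled the lower limit of the rule, with kfl00009_0500_v1.1 outside and kfl00009_0510_v1.1 inside. The first had 69893, 71575 and 64078 in mock and 38670, 33676 and 29963 in OPDA.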

How the data were processed

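RNA was sequenced from 3 mock and 3 OPDA libraries. The authors deposited raw read counts per gene for each library, and a normalized signal table whose values equal the count divided by 1 size factor per library, between 0.962 and 1.04. Per the submitters' processing notes, the tools were DESeq2, HISAT2, HTSeq and Trim Galore; no source used here gives versions, build, counting mode or strand. Multiplied by that factor, 100% of the 17152 values of each library came out whole within 1e-06. The table lacks 1 gene, kfl00001_0010_v1.1, whose scaled counts (up to 5094) lie below the 250 highest.

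Genes were chosen and levels given on the normalized table, shares on the raw counts. The test over all genes was edgeR's quasi-likelihood test (edgeR 4.0.16, R 4.3.3; TMM factors, robust estimation, filterByExpr with a minimum count of 10, 11752 genes) without covariates, tested on simulated data. All 226 genes passed that filter. Edges of the rule, the 10 highest means, the 4 highest and 4 lowest ratios and the 3 widest and 3 narrowest spreads were named by rule; other genes were named after their values were seen. Members and lists were chosen with earlier results of these data known. Lists of photosynthesis, translation and other genes, and sequence features, were not used, since no product or sequence could be matched. Assembly ASM70883v1 served for locus tags and neighbours only. Other settings, with DESeq2 1.42.0 and limma 3.58.1 (voom) among them, are given at the end.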

Additional observations from a re-analysis of the deposited data

How the results depend on the processing

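Of 157 values recomputed under other settings, 141 met a wide tolerance: counts and SDs within 1.5 times the reported value, shares and median ratios within the SD between libraries. Some of the 141 could not move by construction. Scaling cannot change a share within a library, and leaving out a mock library cannot change the spread of fixed genes in OPDA. The share of counts in mock and OPDA followed the choice of genes by construction: 25.1% and 22.1% with the 200 highest means, 29.2% and 25.9% with 300, 21.3% and 19.6% within 1.5-fold, 26.1% and 23.6% ranked by all 6 libraries, and 25.0% and 22.9% ranked by OPDA (added later). The median log2 ratio was -0.10 with total counts, against -0.02; without OPDA replicate 1 it was -0.05. Within 1.5-fold 179 genes were kept. Leaving out each library, with genes chosen again, gave 223 to 230 genes, with 26.5% to 28.0% of counts in mock. With the genes fixed, the median SD of log2 ranged from 0.0408 to 0.0669 in mock and from 0.0650 to 0.104 in OPDA. Part of any drop comes from taking the SD of 2 libraries in place of 3. Genes past the edgeR threshold numbered 6259 with total counts (2232 higher, 4027 lower, against 3115 and 3233), 5915 with DESeq2, 6368 with limma-voom and 6350 on the recovered reads, a setting added after the data had been seen. Kept genes past it numbered 104 to 132 under all settings but the block, against 118. Replicate numbers 1 and 2 occur in both groups without a stated meaning. Across genes, deviations from the group means correlated at 0.0710 for number 1 and -0.0997 for number 2. Over the kept genes alone these were 0.401 and -0.0473. Pairs of unlike numbers ran from -0.121 to 0.109 across genes and from -0.365 to 0.273 over the kept genes. With the replicate block, 5023 genes passed, 90 of them kept genes (33 higher and 57 lower, against 36 and 82); mock replicate 3 and OPDA replicate 4 add nothing to the comparison there.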
